A study of Mus musculus with 2 samples.

Results

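The genes described here encode enzymes that make heme and break it down, measured in mouse liver after gamma irradiation. They were chosen by name from a list of 9 (Alas1, Alas2, Alad, Urod, Cpox, Ppox, Fech, Hmox1 and Blvrb), keeping those with a probe set annotated with exactly 1 gene symbol. That left 8 of the 22180 genes on the array that could be read in this way. Alas2 was the gene left out, because its probe set also carries the symbol of the neighbouring gene Apex2.

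Liver RNA was read on 2 arrays, 1 from a control and 1 from an irradiated sample. Both came from male C57BL/6 mice aged 9 weeks. The irradiated group had received 6 Gy of gamma rays to the whole body, under anesthesia and in 1 exposure at 0.81 Gy per minute, at 4 weeks of age, 5 weeks before the liver was taken. The control group was untreated, and the labels do not say whether it was anesthetized, whether an RNA came from 1 mouse or a pool, or at what time of day livers were taken. Each group is 1 array, which gives no spread between animals and allows no test, and every difference below compares these 2 arrays only.

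Heme is built from glycine and succinyl-CoA in a chain of steps that starts in the mitochondrion, passes through the cytosol and ends in the mitochondrion, where iron is inserted. The liver is the main site of heme synthesis outside the bone marrow and spends most of it on cytochrome P450 enzymes. Heme oxygenase opens the ring to biliverdin, which biliverdin reductases turn into bilirubin.

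None of the 8 genes differed by as much as 1.5-fold between the arrays, in either direction. Across the 13689 expressed genes, the share past 1.5-fold was 1.14% for higher and 0.65% for lower values after irradiation, so a count of 0 among 8 genes is near that background. Expressed means that the higher of the 2 values reached 6.06, the median of all values on the arrays, and all 8 genes were above this floor on both arrays. At a smaller size of 0.32 on the log2 scale the count was also 0 of 8, where 4.65% of expressed genes were higher and 3.75% lower. At 2-fold it was 0 of 8 as well, against shares of 0.321% and 0.183%. The median difference over the 8 genes was -0.03 on the log2 scale, irradiated minus control, and that over all expressed genes was -0.00. Of the 8, 5 were below 0, 2 were above 0 and 1 was equal, while 50.3% of expressed genes were below 0 and 48.5% above it.

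**Figure D1:**
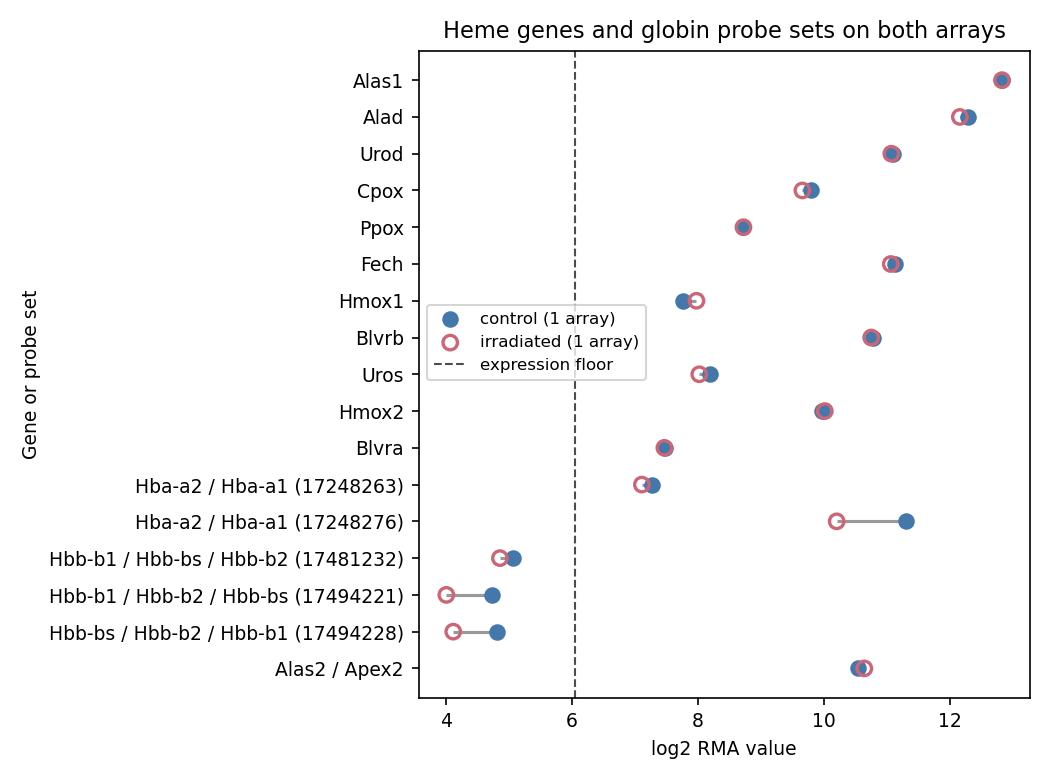
The log2 RMA value of each heme gene, of the other heme enzymes and of probe sets with several symbols is plotted on the control array (filled) and on the irradiated array (open), 1 array each with no error bars. The pairs of the 8 heme genes nearly coincide, and the widest pair is a probe set of Hba-a2 and Hba-a1 at 11.30 and 10.20; values of different probe sets are not comparable with each other.

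Alas1 encodes the ubiquitous form of 5-aminolevulinate synthase, the first and rate-limiting enzyme of the pathway and the form used by hepatocytes. Its log2 value was 12.82 in the control and 12.83 after irradiation, which differ by 0.01. Among expressed genes, 95.8% differed by at least as much in one direction or the other. The gene read almost alike in both samples.

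Alas2 encodes the erythroid form of the same enzyme, used by red cell precursors. The probe set annotated with Alas2 and Apex2 together read 10.55 and 10.64, a difference of 0.09. Apex2, a DNA repair endonuclease gene, has a probe set of its own, which read 7.76 and 7.84, a difference of 0.08. The share of the joint reading that is Alas2 cannot be told from these values.

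The starts of these genes are shown because the array reads Alas1 on its own, and Alas2 and the alpha-globin genes only through shared probe sets. Cpox is added as the heme gene with the largest lower difference. Each sequence is the 250 bases before an annotated start, from RefSeq (GRCm38.p6), in the direction of the gene. Capitals mark GATAA, the letters that GATA factors of red cell precursors recognise, and CACCC, those of Kruppel-like factors, on either strand (TTATC and GGGTG). Matches of the 2 motifs did not overlap each other in these 4 windows. The windows are chr9:106247955-106248204 on the minus strand for Alas1 (1 of 2 starts in the table), chrX:150547167-150547416 for Alas2, chr16:58669958-58670207 for Cpox and chr11:32283422-32283671 for Hba-a1, the last 3 on the plus strand.
Alas1: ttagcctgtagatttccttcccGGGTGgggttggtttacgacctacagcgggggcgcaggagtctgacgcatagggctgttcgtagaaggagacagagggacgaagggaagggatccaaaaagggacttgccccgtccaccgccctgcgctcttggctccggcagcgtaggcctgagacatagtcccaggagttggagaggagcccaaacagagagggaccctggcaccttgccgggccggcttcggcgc
Alas2: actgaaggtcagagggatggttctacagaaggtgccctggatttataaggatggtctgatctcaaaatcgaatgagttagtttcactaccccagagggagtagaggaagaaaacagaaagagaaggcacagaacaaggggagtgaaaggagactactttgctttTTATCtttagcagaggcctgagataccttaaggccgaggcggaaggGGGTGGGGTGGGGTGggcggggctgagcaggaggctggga
Cpox: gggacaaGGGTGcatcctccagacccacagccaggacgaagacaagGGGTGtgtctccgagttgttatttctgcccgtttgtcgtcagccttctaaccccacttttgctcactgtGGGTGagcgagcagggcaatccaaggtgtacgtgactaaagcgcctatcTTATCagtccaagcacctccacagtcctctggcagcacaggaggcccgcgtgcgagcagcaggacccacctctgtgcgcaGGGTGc
Hba-a1: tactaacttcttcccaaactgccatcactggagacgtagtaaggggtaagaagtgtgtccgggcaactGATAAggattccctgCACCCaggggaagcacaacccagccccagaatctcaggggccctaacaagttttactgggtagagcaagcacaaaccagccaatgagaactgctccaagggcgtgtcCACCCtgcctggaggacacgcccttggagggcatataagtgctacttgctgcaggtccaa
GATAA was found once in the windows of Alas2, Cpox and Hba-a1 and not in that of Alas1. CACCC was found 3 times for Alas2, side by side, 4 times for Cpox, 2 times for Hba-a1 and 1 time for Alas1. Of the 8 heme genes 6 were matched to the promoter table and Fech and Hmox1 were not, and these 6 have 9 windows, 1 for each listed start. Of the 9 windows 1 held GATAA and 6 held CACCC. Of all 32851 windows of the same length, 22.6% held GATAA and 52% held CACCC. The core of the antioxidant response element, TGACNNNGC, was in none of the 9 and in 10.2% of all windows. These matches describe letters in a window and no factor's binding was measured.

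Alad encodes the cytosolic dehydratase that joins 2 aminolevulinate molecules into porphobilinogen. The control value was 12.29 and the irradiated value 12.16, a difference of -0.13, or 1.09-fold lower. As large a difference in either direction was seen in 41.7% of expressed genes.

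Urod encodes the cytosolic decarboxylase that makes coproporphyrinogen. It read 11.10 and 11.07, a difference of -0.03, and the values are close to equal. Uros, which closes the ring in the step before and was read beside the listed genes, was at 8.20 and 8.02, a difference of -0.18. That was the largest lower value among the synthesis enzymes read, and 28.3% of expressed genes differed by at least as much.

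The last 3 synthesis enzymes work in mitochondria. Cpox, which oxidises coproporphyrinogen, read 9.80 and 9.66, a difference of -0.14, or 1.10-fold lower. For Cpox, 37.0% of expressed genes differed by at least as much. Ppox, which oxidises the ring to protoporphyrin, read 8.72 on both arrays, equal to the last deposited decimal. Such exact ties were found for 156 of the 13689 expressed genes. Fech encodes ferrochelatase, which inserts the iron, and read 11.12 and 11.06, a difference of -0.06. Over the 6 listed synthesis genes differences ran from -0.14 to 0.01. Of the 6, 4 were below 0, and with Uros 5 of 7 were, beside 50.3% of all expressed genes.

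Hmox1 encodes the inducible heme oxygenase, known to be induced by heme and oxidative stress and abundant in macrophages that clear red cells. It had the largest difference of the 8 genes, 0.21, from 7.77 in the control to 7.98 after irradiation, or 1.15-fold higher. Among expressed genes 21.8% differed by at least as much in either direction. Hmox2, the constitutive heme oxygenase, read 9.97 and 10.02, a difference of 0.04.

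Blvrb encodes biliverdin reductase B, a flavin and biliverdin reductase abundant in red cells. It read 10.78 and 10.75, a difference of -0.03. Blvra, the main biliverdin reductase of adult tissue, read 7.47 on both arrays, a difference of -0.0045. Of the 4 breakdown enzymes read, Hmox1 alone differed by more than 0.05.

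**Figure D2:**
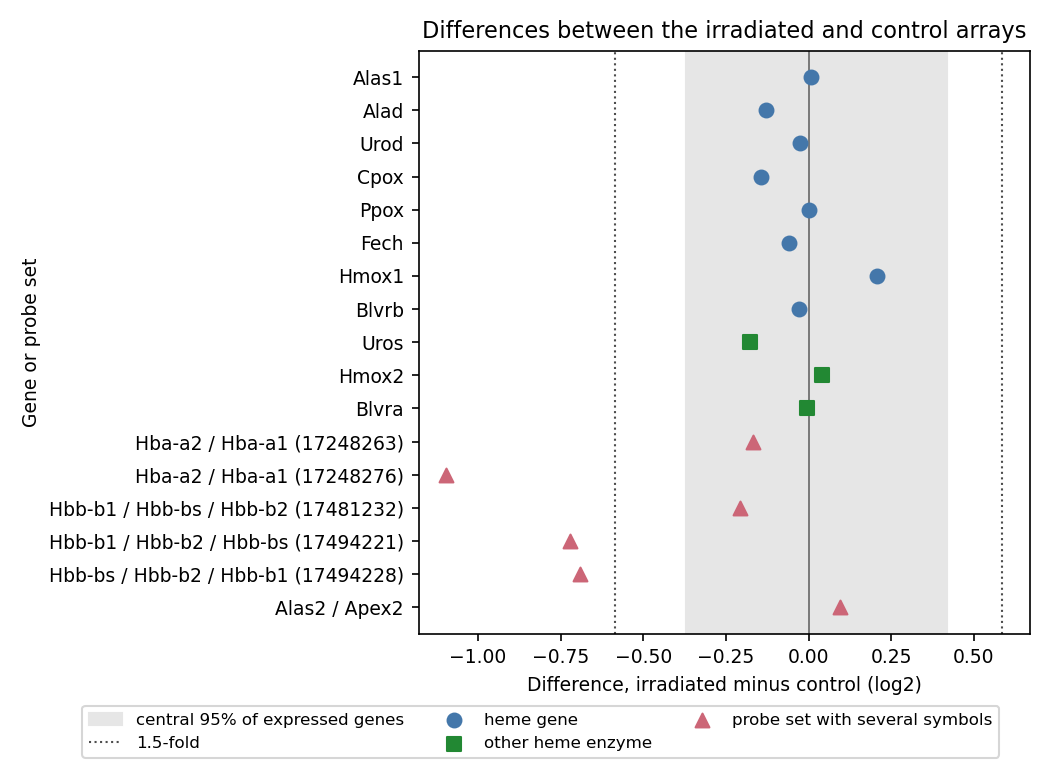
The difference between the arrays, irradiated minus control on the log2 scale, is plotted for each heme gene (circles), other heme enzyme (squares) and probe set with several symbols (triangles), against the central 95% of expressed genes (grey, from -0.37 to 0.42) and 1.5-fold (dotted). All 8 heme genes lie inside the grey band, and the leftmost point is a probe set of Hba-a2 and Hba-a1 at -1.10.

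The size of these differences can be set beside the scatter of the arrays. The median absolute difference was 0.04 over the 8 heme genes and 0.11 over all expressed genes, and 3 of the 8 (Hmox1, Cpox and Alad) were above the latter. When each heme gene was set beside expressed genes whose mean lay within 0.5 of its own, all 8 were inside the central 95% of those genes. For Hmox1 these were 2744 genes with a central range from -0.37 to 0.39, and for Alad 350 genes with a range from -0.30 to 0.17. Each heme gene had a single probe set, so none could be checked against a second one. Among 392 other genes with 2 expressed probe sets, the differences shown by both had a median gap of 0.17, and 7 of the 8 heme genes differed by less than that. The gap carries the scatter of 2 probe sets, and its genes were not matched to the heme genes by level. It is therefore not a like measure for the difference of a single probe set.

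Globin genes, which encode the protein part of hemoglobin, were read by 5 probe sets annotated with several symbols. All 5 were lower on the irradiated array, beside 50.3% of all expressed genes. They read the alpha-globin pair and the adult beta-globin genes repeatedly, so they are not 5 separate genes. Of the 5, 2 were above the expression floor, and these share 1 pair of genes. The probe set 17248276, annotated with the adult alpha-globin genes Hba-a2 and Hba-a1, read 11.30 and 10.20, a difference of -1.10 or 2.14-fold lower. Among expressed genes, 0.409% differed by at least as much in either direction, and 0.168% were at least as much lower. The other probe set of the same 2 genes, 17248263, read 7.28 and 7.11, a difference of -0.17. The 2 readings of the same pair of genes therefore differed in size.

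The 3 probe sets annotated with the adult beta-globin genes Hbb-b1, Hbb-b2 and Hbb-bs were below the expression floor on both arrays. They read 4.73 and 4.01 (17494221), 4.81 and 4.12 (17494228), and 5.06 and 4.86 (17481232), with differences of -0.72, -0.69 and -0.21. No fold is given for values under the floor on both arrays. The embryonic globin genes had probe sets of their own and were below the floor on both arrays too, with differences of 0.39 for Hba-x, 0.09 for Hbb-bh1, 0.05 for Hbb-bh2 and -0.32 for Hbb-y.

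Red cells and their precursors in the liver sample would bring globin, Alas2 and other erythroid RNA with them. Of 26 erythroid markers 22 had a probe set of their own and 16 were expressed. Of these, 11 were above 0 and 5 below, beside 48.5% and 50.3% of all expressed genes, with a median of 0.13. None was 1.5-fold different, where 1.14% of all expressed genes were higher and 0.65% lower. Among the 11 was Trim10, which reached the floor on the irradiated array alone, and the 15 markers above the floor on both arrays had a median of 0.11. With a floor at the 75th percentile of all values (7.64) the median was 0.06, and only Tspan33, Xpo7, Car1 and Tfrc reached that floor. The mean of the 16 expressed markers was 0.06. Klf1, an erythroid transcription factor gene, differed by -0.29 (7.51 and 7.22) and the red cell anion exchanger gene Slc4a1 by 0.19 (6.38 and 6.57). Gata1, the erythroid master regulator, was below the floor on both arrays, at 5.45 and 5.60. The largest differences were in Tspan33 (0.41), the Rh antigen gene Rhd (0.37) and the erythropoietin receptor gene Epor (-0.35). The summed linear level of the expressed markers was 11.86 in the control and 11.89 after irradiation, as log2. That sum adds probe sets whose levels are not comparable, and Xpo7 (10.25 and 10.28), a nuclear transport gene that other cells express too, is its largest term. The part of blood cells in the globin values was not tested. In bulk tissue, fewer cells of a type and less RNA per cell cannot be told apart.

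Kupffer cell and macrophage markers are given beside Hmox1. All 18 were expressed, 14 were above 0 (48.5% of all expressed genes were), and their median was 0.11. None reached 1.5-fold. Against 4.65% of all expressed genes, 3 of the 18 were higher by at least 0.32. They were the complement receptor gene Vsig4 (0.40), the complement gene C1qb (0.38) and the lysosomal gene Cd68 (0.36). The other C1q genes of the list did not follow C1qb, with 0.05 for C1qa and -0.08 for C1qc. The Kupffer cell lectin gene Clec4f differed by 0.11, the macrophage marker Adgre1 by -0.05 and the hemoglobin scavenger receptor gene Cd163 by -0.29. The summed linear level of the 18 was 13.52 in the control and 13.70 after irradiation, as log2. This sum too adds probe sets whose levels are not comparable. Slc40a1 (10.91 and 11.03) and Vsig4 (10.77 and 11.17) are its largest terms. The part of these cells in the Hmox1 value was not tested.

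Hmox1 and Blvrb are known targets of the oxidative stress factor Nrf2. Of 19 other expressed genes linked to Nrf2, targets and regulators together, 14 were above 0, beside 48.5% of all expressed genes, with a median of 0.05. Osgin1, an oxidative stress growth inhibitor gene, was the only one past 1.5-fold, at -0.77 (11.18 and 10.41). Past 1.5-fold, 1.14% of all expressed genes were higher and 0.65% lower. The metallothionein gene Mt2 was at 0.50 and Gclc, which encodes the catalytic subunit of glutathione synthesis, at 0.33. The list counts Nfe2l2, the gene of Nrf2 itself, and the regulator genes Keap1, Bach1, Mafg and Mafk with the targets. Besides Osgin1, the values at or below 0 were those of Nfe2l2 (-0.05), Bach1 (-0.12), Mafg (-0.02) and Mafk (0). The other expressed members, Keap1 (0.03) among them, were above 0.

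Around Alas1, 18 expressed regulators and proteases had a median of -0.00. Of the 18, 9 were above 0 and 9 below, beside 48.5% and 50.3% of all expressed genes. Npas2 (6.04 and 6.42, a difference of 0.38) reached the floor on the irradiated array alone. The clock activator gene Arntl, at 0.61 (6.53 and 7.14), was the 1 of the 18 past 1.5-fold. Of all expressed genes, 1.14% were higher and 0.65% lower by that much. The heme-binding clock repressor gene Nr1d1 was at -0.54 (9.88 and 9.34), and the clock output gene Dbp at -0.39 (10.90 and 10.51). Alas1 itself was at 0.01 beside these clock gene values, and the part of time of day in them was not tested.

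A list for heme transport, scavenging and sensing had a median of -0.06 over 26 expressed members, with 18 below 0, beside 50.3% of all expressed genes. It includes the mitochondrial carrier genes Slc25a28, Slc25a37, Slc25a38 and Slc25a39 and the iron regulatory genes Ireb2 and Aco1, which do not move heme. All of these but Aco1 were below 0. None of the 26 was 1.5-fold different, where 1.14% of all expressed genes were higher and 0.65% lower. Besides Nr1d1, the one past 0.32 in size was Flvcr2, a membrane transporter gene of the heme exporter family, at -0.48 (7.39 and 6.91). Hemoproteins, the users of heme, had a mean of -0.13 and a median of -0.03 over 25 expressed members, with 16 below 0 (50.3% of all expressed genes were). The P450 genes Cyp3a25 (-1.28), Cyp4a14 (-0.56) and Cyp2b10 (-0.45) had the largest differences. With Cyp8b1 (-0.38), 4 of the 25 were lower by at least 0.32 and 0 were higher. Of all expressed genes, 3.75% were lower and 4.65% higher by that much. Cyp3a25 was the only member of the hemoprotein list past 1.5-fold, beside the same 1.14% higher and 0.65% lower. The lists were chosen with earlier results known, so these counts are descriptions.

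**Figure D3:**
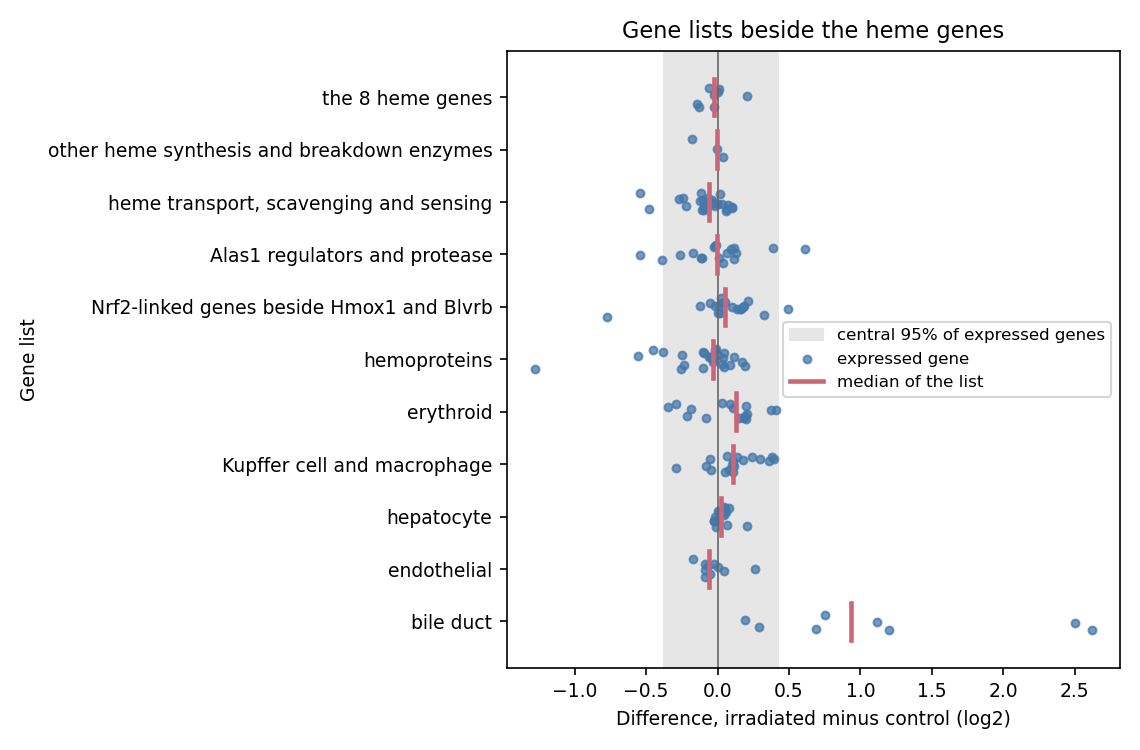
Each point is an expressed gene of a list, placed by its difference between the arrays (irradiated minus control, log2), with the list's median as a bar and the central 95% of expressed genes in grey; points are spread vertically at random for legibility. The 8 heme genes lie between -0.14 and 0.21, and the bile duct list is the one whose median, 0.93, is outside the grey band.

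The liver label was checked on hepatocyte markers, where Alb read 13.68 and 13.70 and Apoa1 12.84 and 12.82, and 16 expressed markers had a median of 0.02. Endothelial markers had a median of -0.06 over 10 genes. Bile duct markers had one of 0.93 over 8 genes. With a floor at the 75th percentile (7.64) it was 2.50. Only Sox9 (7.47 and 7.66), Cd24a (7.23 and 9.73) and Muc1 (6.21 and 8.83) reached that floor, each on the irradiated array alone. That larger median therefore follows in part from the filter. Of the 8 bile duct markers, 6 were at least 1.5-fold higher, beside 1.14% of all expressed genes. Muc1 (2.62), Cd24a (2.50) and Krt19 (1.20) led them. The part of bile duct markers in the heme gene values was not tested.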

How the data were processed

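Liver RNA of 1 control and 1 irradiated sample was measured on Affymetrix arrays from biotin-labelled cDNA. The deposited log2 values, 41345 probe sets per array, were made by the authors with RMA in Affymetrix Expression Console 1.3.1, per the submitters' processing notes. RMA corrects background, normalizes arrays to each other and summarises probes, so a change in total RNA per cell is not visible. The log base is read from the values, which ran from 1.46 to 13.9. No genome build of the array was used.

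Gene names came from GEO's platform annotation, which can be old: 23521 probe sets had 1 symbol, 1814 several and 16010 none. The probe set with the highest mean stood for a gene. Differences were taken as irradiated minus control in Python 3.11.15 (pandas 2.3.3), and the steps were tested on simulated data. Named were the 8 genes, the other heme enzymes, all globin probe sets with several symbols, defining cell markers, and of each list up to 3 expressed members at least 0.32 apart (log2). Some other list members are named where they qualify a count, a sum, a floor or a named gene. The members and lists were chosen with earlier results of these data known. Alternatives changed the floor, scaling, offset, probe set choice, symbols, fold and summary. The number of arrays limits the precision.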

Additional observations from a re-analysis of the deposited data

How the results depend on the processing

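No paired analysis was possible because there was 1 array per group. In all settings run, the heme genes past 1.5-fold numbered 0 in each direction, as they did at 2-fold and at a smaller size of 0.32 (log2), and no heme gene's difference moved by more than 0.025. Alas1 (from -0.02 to 0.01) and Ppox (from -0.02 to 0.01) changed sign, and the other 6 did not. With the first of several symbols used, Alas2 joined the list at 0.09. The probe set 17248276 of Hba-a2 and Hba-a1 stayed between -1.11 and -1.08. With an offset of 32 on the linear scale, the beta-globin probe sets differed by -0.10 (17481232), -0.28 (17494221) and -0.28 (17494228), and with lower values raised to the floor, by 0 each, since both values of each are under it. The bile duct median was 0.75 with no floor, 0.74 with the offset and 1.17 as a mean, and the cause was not tested. It was 2.50 with a floor at the 75th percentile, which only Sox9, Cd24a and Muc1 reached, each on the irradiated array alone. Without replicates, the spread between animals is unknown, and a difference of the size seen for Hmox1 cannot be told from it.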
